A study of Homo sapiens with 6 samples.

Results

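The genes described here are the 4 members of the STEAP family, STEAP1, STEAP2, STEAP3 and STEAP4, and 6 genes of cellular iron handling: TFRC, SLC11A2, FTH1, FTL, SLC40A1 and IREB2. They were chosen by symbol, and all 10 were found among the 60664 genes of the deposited table. The symbols were picked with the difference between treated and buffer libraries already known, so the values of that comparison describe these genes and are not independent evidence about them. RNA was sequenced from SW480 cells, an established wild-type human colorectal adenocarcinoma line grown from 1 tumour, after treatment with buffer (3 libraries) or Amuc_0904 (3 libraries). Amuc_0904 looks like a gene identifier of Akkermansia muciniphila, a bacterium of the gut mucus. The labels give no dose, time or preparation, and they do not say whether replicates were separate cultures, so p-values measure only the spread between these libraries.

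Values are TPM, the share of a library held by a transcript after scaling by its length, so levels can be compared between genes. Each library's TPM added up to 996107 to 997036, and because TPM keeps no read number the depth is unknown and no counting interval is given. All 6 colorectal epithelial markers (EPCAM, KRT8, KRT18, KRT19, CDX2 and VIL1) were present, VIL1 only at 0.69 to 1.09 TPM, with a summed level of 7900 to 8142 TPM (buffer) and 7088 to 7377 TPM (Amuc_0904). CDX2 had means of 28.0 TPM with buffer and 18.7 TPM with Amuc_0904 (limma adjusted p = 0.077). All treated libraries were below all buffer libraries for CDX2, EPCAM, KRT8 and KRT19, as for 20.1% of all genes tested. KRT18 and VIL1 overlapped between groups. The 6 leukocyte markers summed to 3.66 to 4.44 TPM (buffer) and 4.80 to 5.55 TPM (Amuc_0904), with the pan-leukocyte marker PTPRC listed at 0 in all 6 libraries. CD68, a lysosomal protein of macrophages, had means of 1.42 and 2.84 TPM with all treated above all buffer libraries (limma adjusted p = 0.077), and CD14 had means of 1.41 and 1.58 TPM. The 5 fibroblast markers summed to 2.30 to 3.76 TPM (buffer) and 1.71 to 1.98 TPM (Amuc_0904), most of it the collagen COL1A1 (means of 2.49 and 1.57 TPM), with DCN listed at 0 throughout. The part of these markers in the results was not tested. The summed level of 4 erythroid markers was 5.56 to 8.70 TPM (buffer) and 7.74 to 10.8 TPM (Amuc_0904), of which HBA1 made up 78.6% (Amuc_0904 replicate 2) or more in each library. In bulk RNA, fewer cells with a transcript and less of it per cell cannot be told apart.

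STEAP proteins are membrane-embedded reductases that pass electrons to ferric iron and cupric copper, so that the reduced metal can cross a membrane. STEAP1 differs from its relatives in lacking their NADPH-binding reductase domain. Iron bound to transferrin enters cells through the transferrin receptor (TFRC), is reduced in endosomes, leaves them through the divalent metal transporter DMT1 (SLC11A2), and is stored in shells of ferritin heavy and light chains (FTH1, FTL) or exported by ferroportin (SLC40A1). The iron regulatory proteins, one of them encoded by IREB2, bind hairpins called iron-responsive elements when iron is scarce. Binding in a 5′ untranslated region blocks translation of the mRNA, and binding in a 3′ untranslated region protects it from decay.

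The hairpins are shown because their place in an mRNA sets how binding acts on it. GENCODE 29 coding transcripts were searched on the sense strand for C, any 5 bases, CAGTGN and 5 bases that pair with the first 5 (G-T pairs allowed). In the lines below, which cover 29 bases each on the minus strand for TFRC and SLC40A1 and on the plus strand for FTL, capitals mark the unpaired C and the CAGTGN loop.
TFRC 3′ UTR, chr3:196050979-196051007: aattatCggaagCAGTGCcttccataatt
TFRC 3′ UTR, chr3:196050575-196050603: cattatCgggagCAGTGTcttccataatg
TFRC 3′ UTR, chr3:196050510-196050538: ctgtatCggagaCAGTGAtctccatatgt
TFRC 3′ UTR, chr3:196050463-196050491: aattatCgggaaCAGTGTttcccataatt
FTL 5′ UTR, chr19:48965335-48965363: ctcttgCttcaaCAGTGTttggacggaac
SLC40A1 5′ UTR, chr2:189580661-189580689: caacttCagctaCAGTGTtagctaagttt
FTH1 held 1 match, also in its 5′ UTR (chr11:61967574-61967602). The SLC40A1 match was in 1 of 5 coding transcripts of that gene. Each TFRC match was in 3 of 4, the FTH1 match in 7 of 8 and the FTL match in 1 of 1. No match was found in STEAP1, STEAP2, STEAP3, STEAP4, SLC11A2 or IREB2, which says only that this exact pattern is not in those transcripts. Hairpins with an imperfect stem are missed by this search, so these genes cannot be said to lack an iron-responsive element. Among 12033 tested protein-coding genes, 1.63% held a match in their longest transcript. These are matches to a pattern and not measured binding.

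Levels spanned a wide range. FTH1 and FTL were highest, with means over the 6 libraries of 4849 and 4486 TPM, followed by TFRC (147 TPM), STEAP1 (40.0 TPM), SLC11A2 (22.7 TPM) and IREB2 (9.89 TPM). STEAP3 (5.85 TPM) and STEAP2 (5.14 TPM) came next, then SLC40A1 (0.223 TPM) and STEAP4. Library values overlapped between FTH1 and FTL and between STEAP3 and STEAP2, and the other neighbours in this order did not overlap. Together FTH1 and FTL held 1.01% ± 0.051 of the listed TPM in buffer and 0.866% ± 0.075 in treated libraries (SD, n = 3 each).

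**Figure D1:**
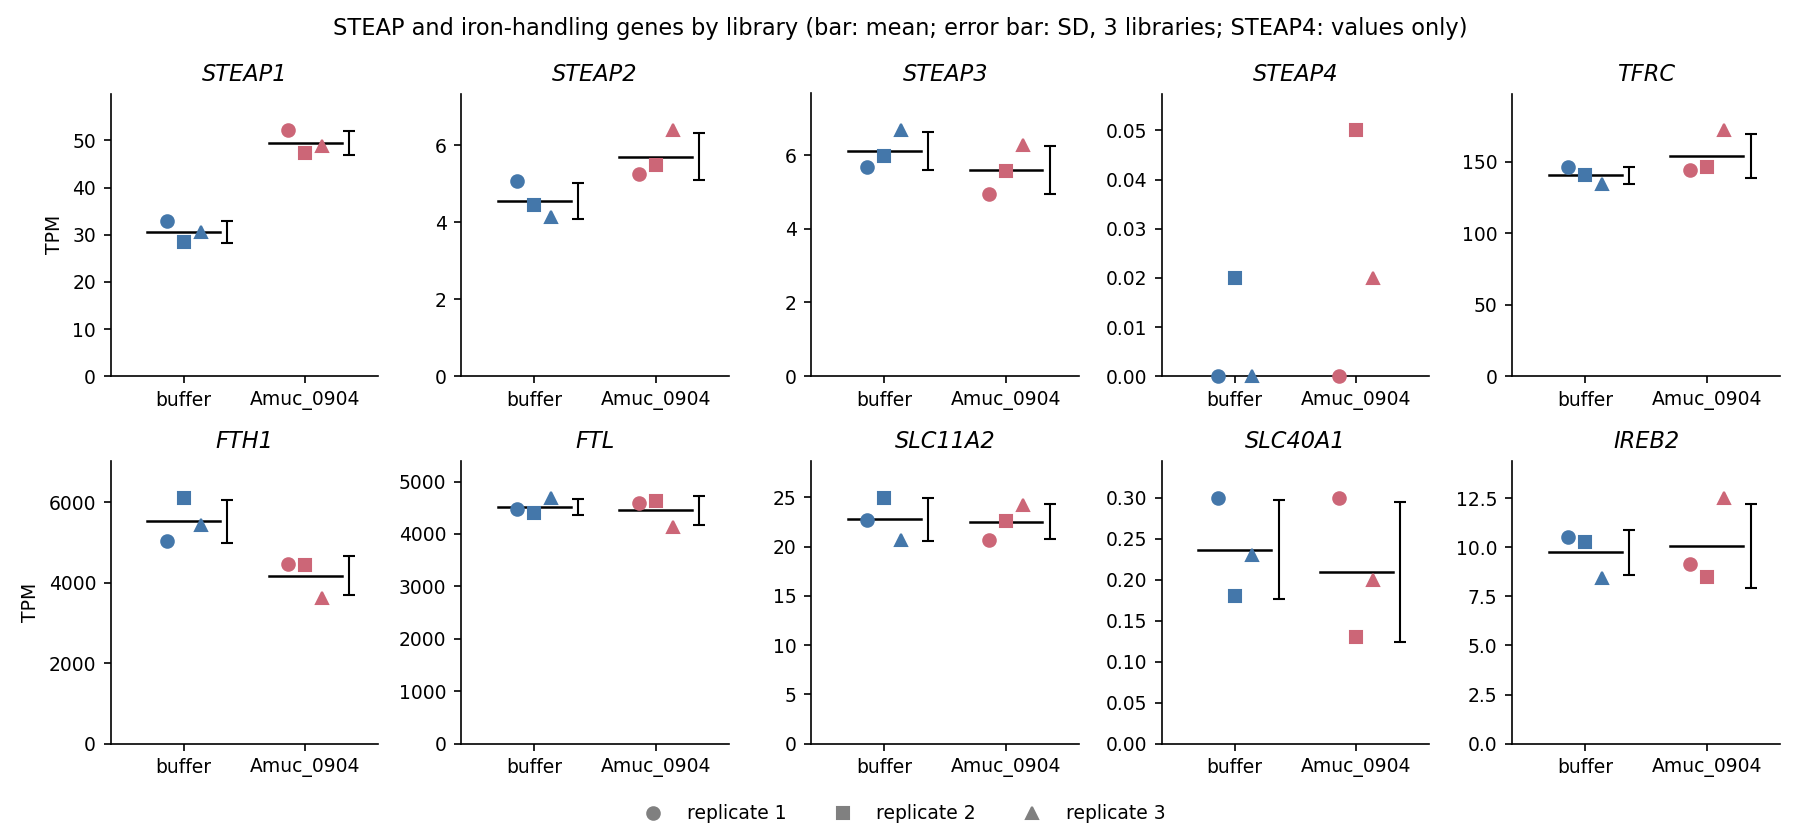
TPM of each gene in the 3 buffer (blue) and 3 Amuc_0904 (red) libraries, with symbols for replicate numbers, the mean as a bar and the SD as an error bar, each panel on its own linear scale from 0. The treated libraries lie above all buffer libraries for STEAP1 and STEAP2 and below them for FTH1, while the groups overlap in the other panels.

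Of the 10 genes, 8 passed the filter of at least 1 TPM in at least 3 libraries. In limma, with p-values adjusted by the Benjamini-Hochberg method over all 14421 genes tested, 1 of the 8 rose (STEAP1) and 0 fell at an adjusted p of 0.05. Over all genes tested 0.368% rose and 0.999% fell, 1.37% in all. At an unadjusted p of 0.05, 1 of the 8 was higher (STEAP1) and 1 lower (FTH1), against 4.49% and 16.3% of all genes. All treated libraries lay above all buffer libraries for 2 of the 8 and below them for 1, against 7.00% and 20.1% of all genes tested, 27.1% in all. The median log2 fold change (Amuc_0904 minus buffer, on log2(TPM + 1), a scale that understates changes of low genes) was 0.01 over the 8 and -0.06 over all genes.

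STEAP1 (ENSG00000164647, chr7:90154375-90164829) was at 33.0, 28.4 and 30.5 TPM in buffer replicates 1, 2 and 3 and at 52.1, 47.3 and 48.9 TPM in Amuc_0904 replicates 1, 2 and 3. Every treated library was above every buffer library, and the gap between the groups was wider than the spread within either. The mean rose 1.61-fold, from 30.6 ± 2.27 to 49.4 ± 2.49 TPM (SD, n = 3 each; limma log2 fold change 0.67, SE 0.078, adjusted p = 0.0094). STEAP1 ranked 29 of 14421 by p. Its call held without each single library in turn (limma adjusted p from 0.030 to 0.047) and with the GC trend removed (log2 fold change 0.59, limma adjusted p = 0.012). It was lost with all genes above 0 tested (limma adjusted p = 0.071) and without the pair buffer replicate 2 and Amuc_0904 replicate 3 (log2 fold change 0.63, limma adjusted p = 0.081).

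STEAP1 has a close copy, STEAP1B, listed at 0.25 to 0.69 TPM. Of the 1239 windows of 75 bases in the longest coding STEAP1 transcript, 152 (12.3%) also occur in STEAP1B. A read that lies wholly within such a window cannot be placed from its own sequence. The window length was chosen here, and the read length is not known. The antisense gene STEAP2-AS1, which overlaps STEAP1 and STEAP2 on the other strand, was listed at 0 in 5 libraries and at 0.06 TPM in Amuc_0904 replicate 3.

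STEAP2 (ENSG00000157214, chr7:90167590-90238137), a metalloreductase gene, starts 2760 bases past the end of STEAP1 on the same strand. It was at 5.08, 4.45 and 4.15 TPM in buffer replicates 1, 2 and 3 and at 5.25, 5.49 and 6.39 TPM in Amuc_0904 replicates 1, 2 and 3. The groups did not overlap, but the lowest treated and highest buffer libraries nearly met, and the gene did not pass (limma log2 fold change 0.27, SE 0.12, adjusted p = 0.25). Within libraries, STEAP1 was 6.49, 6.39 and 7.35 times the level of STEAP2 in buffer replicates 1, 2 and 3 and 9.93, 8.61 and 7.65 times that level in Amuc_0904 replicates 1, 2 and 3. All treated ratios were above all buffer ratios, with Amuc_0904 replicate 3 close to buffer replicate 3, and this ratio does not depend on the scaling of libraries.

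STEAP3 (ENSG00000115107, chr2:119223831-119265652) encodes the endosomal reductase that serves transferrin iron in red cell precursors. Its values were 5.68, 5.98 and 6.67 TPM in buffer replicates 1, 2 and 3 and 4.95, 5.57 and 6.26 TPM in Amuc_0904 replicates 1, 2 and 3. The groups overlapped, and the gene did not pass (limma log2 fold change -0.11, SE 0.12, adjusted p = 0.64). The ratio of STEAP1 to STEAP3 was 5.04 ± 0.666 in buffer and 8.94 ± 1.42 in treated libraries (SD, n = 3 each), again with no overlap. STEAP4 (ENSG00000127954, chr7:88270892-88306891), a metalloreductase gene of fat and inflamed tissue, was listed at 0 in buffer replicates 1 and 3 and Amuc_0904 replicate 1, at 0.02 TPM in buffer replicate 2 and Amuc_0904 replicate 3, and at 0.05 TPM in Amuc_0904 replicate 2. It was too low to test.

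**Figure D2:**
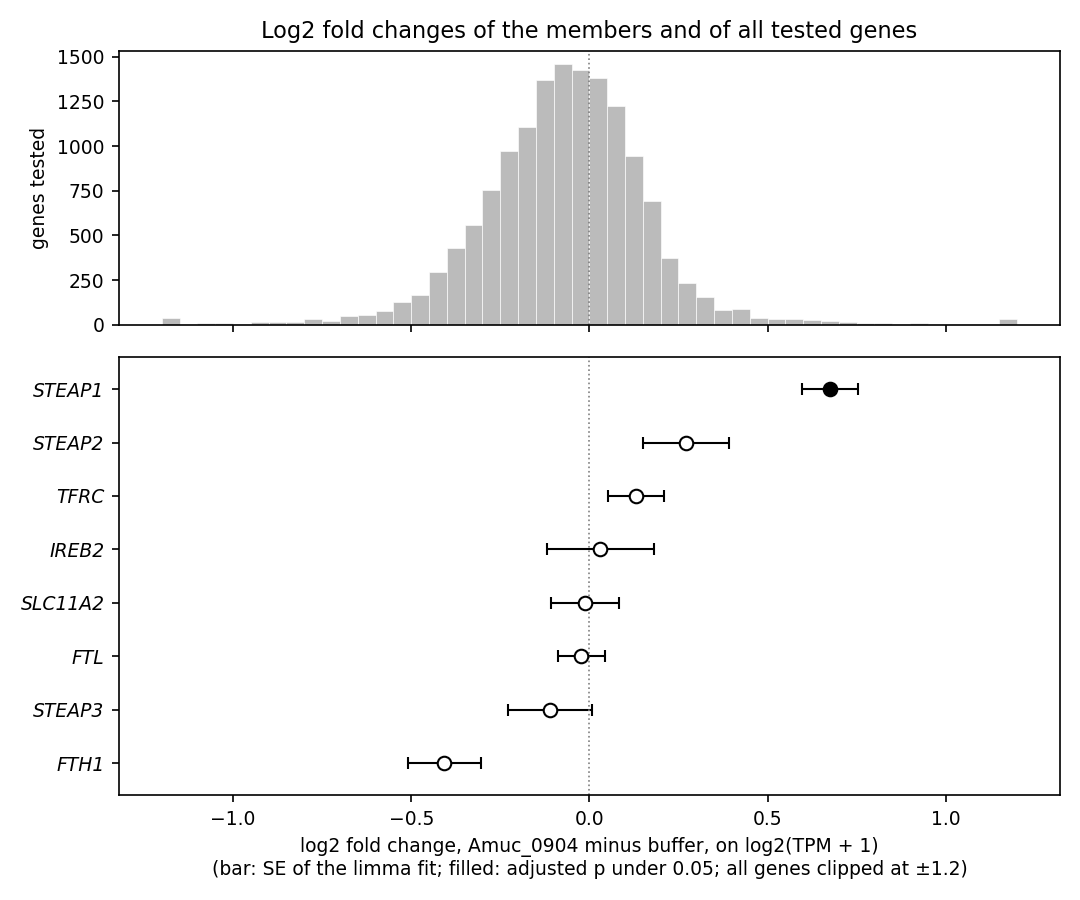
Log2 fold changes of the 8 tested genes with the SE of the limma fit (lower panel) and the histogram of all 14421 tested genes (upper panel, values beyond ±1.2 placed at the ends). STEAP1, at 0.67, is the filled point (adjusted p under 0.05) and lies in the right tail, and FTH1, at -0.41, lies lowest of the 8.

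TFRC (ENSG00000072274, chr3:196027183-196082189), the receptor for transferrin-bound iron, was at 146, 141 and 135 TPM in buffer replicates 1, 2 and 3 and at 144.5, 146 and 172 TPM in Amuc_0904 replicates 1, 2 and 3. Only Amuc_0904 replicate 3 stood above the buffer range by more than 1 TPM. The gene did not pass (limma log2 fold change 0.13, SE 0.079, adjusted p = 0.39), and without that library the log2 fold change was 0.05. SLC11A2 (ENSG00000110911, chr12:50979401-51028566) was at 22.7, 25.0 and 20.7 TPM in buffer replicates 1, 2 and 3 and at 20.7, 22.6 and 24.2 TPM in Amuc_0904 replicates 1, 2 and 3. These ranges coincide, and the log2 fold change of -0.01 (limma, SE 0.095, adjusted p = 0.95) turned positive with centring, with quantile normalization and with ribosomal protein and mitochondrial genes left out (0.07, 0.07 and 0.01).

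The ferritin genes differed from each other. FTH1 (ENSG00000167996, chr11:61959718-61967660), the heavy chain with ferroxidase activity, was at 5038, 6109 and 5428 TPM in buffer replicates 1, 2 and 3 and at 4465, 4435 and 3619 TPM in Amuc_0904 replicates 1, 2 and 3. All treated libraries were below all buffer libraries, as for 20.1% of all genes tested, and the mean was 5525 ± 542 TPM with buffer and 4173 ± 480.0 TPM with Amuc_0904 (SD, n = 3 each). FTH1 did not pass (limma log2 fold change -0.41, SE 0.10, adjusted p = 0.086).

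The highest FTH1 value (buffer replicate 2) and the lowest (Amuc_0904 replicate 3) came from the libraries with the steepest slopes of expression on transcript GC content, 0.093 and -0.11 log2 units per 10 percentage points. With the GC trend removed the log2 fold change was -0.40 (limma adjusted p = 0.12), and without both of those libraries it was -0.23 (limma adjusted p = 0.23). Leaving out the highest buffer and the lowest treated value shrinks the difference in any case. That value therefore says nothing about GC content, whose part was not tested.

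FTL (ENSG00000087086, chr19:48965301-48966878), the light chain that promotes mineral formation in the ferritin core, was at 4469, 4397 and 4689 TPM in buffer replicates 1, 2 and 3 and at 4599, 4623 and 4137 TPM in Amuc_0904 replicates 1, 2 and 3. The groups overlapped (limma log2 fold change -0.02, SE 0.066, adjusted p = 0.88), and the sign turned, among other settings, with centring (0.06), with GC removal (0.05) and with ribosomal protein and mitochondrial genes left out (0.004). The ratio of FTH1 to FTL within a library was 1.13, 1.39 and 1.16 in buffer replicates 1, 2 and 3 and 0.971, 0.960 and 0.875 in Amuc_0904 replicates 1, 2 and 3. FTH1 was thus the higher of the ferritin transcripts in every buffer library and the lower in every treated library. The ratio of TFRC to FTH1 was above the buffer range in each treated library, at 0.026 ± 0.0031 with buffer and 0.038 ± 0.0086 with Amuc_0904 (SD, n = 3 each), with the highest value in Amuc_0904 replicate 3. These ratios were chosen after the values were seen and were not tested.

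FTH1 shares sequence with a gene on its other strand and with copies elsewhere. Of 1155 windows of 75 bases in its longest coding transcript, 847 (73.3%) occur, on either strand, in transcripts of 14 other genes. Of these windows 660 occur in BEST1, which overlaps FTH1 on the other strand and was listed at 0.20 to 0.45 TPM. Reads that keep their strand would tell BEST1 from FTH1, and whether these reads did is not given. The pseudogene with the most shared windows was FTH1P10 (171). The 25 FTH1 pseudogenes in the table summed to 0.95 to 2.93 TPM (buffer) and 2.22 to 2.65 TPM (Amuc_0904), and 12 of them were listed at 0 throughout. For FTL 76 of 804 windows (9.45%) were shared, and its 16 pseudogenes summed to at most 0.41 TPM. How the authors' counting divided such reads is not given in the sources used here, so the level of FTH1 is less certain than that of TFRC, SLC11A2 and IREB2, which shared no window.

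**Figure D3:**
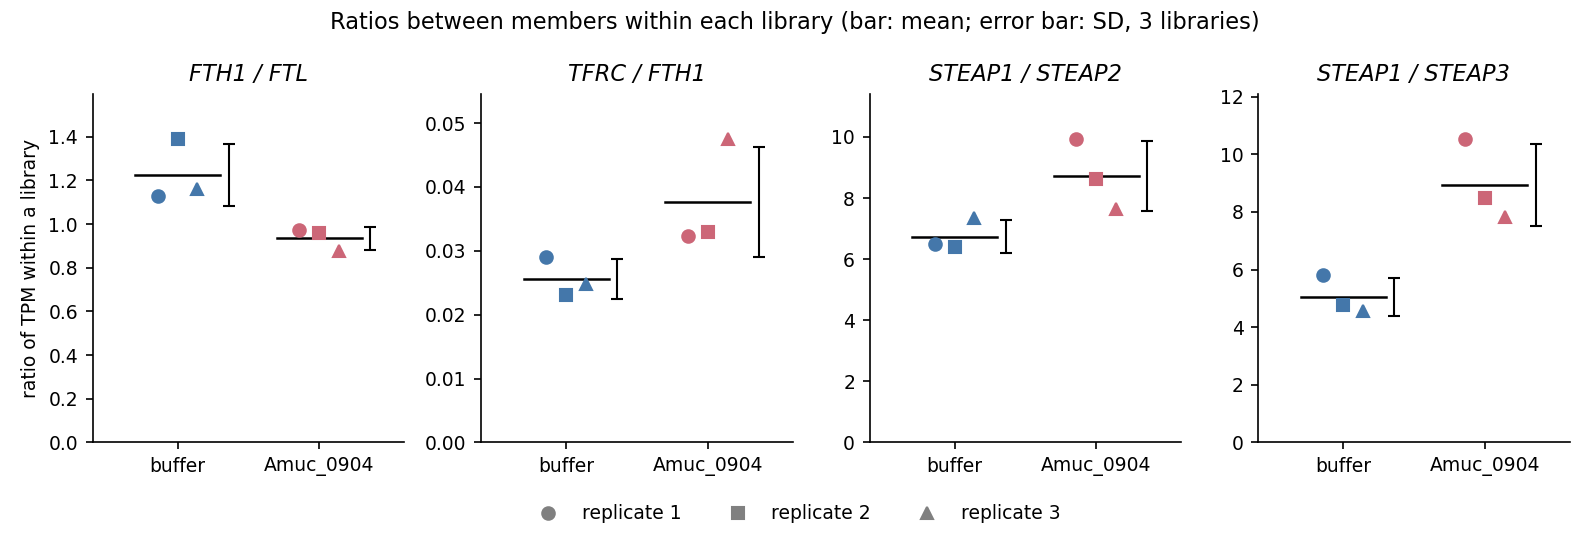
Ratios of TPM between pairs of genes within each library, for the 3 buffer (blue) and 3 Amuc_0904 (red) libraries, with the mean as a bar and the SD as an error bar on linear scales from 0. FTH1 to FTL is above 1 in every buffer library and below 1 in every treated library, and the other 3 ratios are higher in every treated library than in any buffer library.

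SLC40A1 (ENSG00000138449, chr2:189560579-189583758), the only known cellular iron exporter, was near the bottom of the range, at 0.30, 0.18 and 0.23 TPM in buffer replicates 1, 2 and 3 and at 0.30, 0.13 and 0.20 TPM in Amuc_0904 replicates 1, 2 and 3. It was too low to test, and the groups overlapped. IREB2 (ENSG00000136381, chr15:78437431-78501456), which encodes iron regulatory protein IRP2, was at 10.5, 10.3 and 8.41 TPM in buffer replicates 1, 2 and 3 and at 9.16, 8.49 and 12.5 TPM in Amuc_0904 replicates 1, 2 and 3. The groups overlapped, with Amuc_0904 replicate 3 above the rest (limma log2 fold change 0.03, SE 0.15, adjusted p = 0.93). The sign turned to -0.12 without that library and to -0.08 with the GC trend removed.

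Amuc_0904 replicate 3 stood at an end of the treated values for 7 of the 8 tested genes. It was the highest treated library for STEAP2, STEAP3, TFRC, SLC11A2 and IREB2 and the lowest for FTH1 and FTL, while for STEAP1 it lay in the middle. It was also the library with the lowest GC slope. With 3 treated libraries a place at an end is more common than the middle, and its share over all genes tested was not counted. Longest transcripts of the 8 genes held 36.9% (STEAP2) to 56.9% (STEAP3) GC, and the part of GC content in these positions was not tested.

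The pathway around these genes was described with 9 lists of iron and heme genes, written with earlier results of these data known. Their counts and shares therefore describe them and are not independent evidence. The lists held 91 genes in all, of which 75 were tested. In limma 2 rose (STEAP1 and LCN2), 1 fell (SLC48A1) and 72 did not pass, and the median log2 fold change was -0.02, against -0.06 for all genes tested. At an unadjusted p of 0.05, 7 were higher (9.33%, against 4.49% of all genes tested) and 12 lower (16.0%, against 16.3%). Without the 10 genes described above, 6 of 67 were higher (8.96%) and 11 lower (16.4%). Groups did not overlap for 11 that were higher (14.7%, against 7.00%) and 16 that were lower in treated libraries (21.3%, against 20.1%), so the lower genes were at about the share of all genes.

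In the list of iron uptake and reduction, 2 of 12 tested genes rose, 0 fell and 10 did not pass in limma. Over all genes tested 0.368% rose and 0.999% fell. At an unadjusted p of 0.05, 2 were higher (16.7%, against 4.49% of all genes tested) and 1 lower (8.33%, against 16.3%). Besides STEAP1 the gene that rose was LCN2, which encodes lipocalin 2, a binder of iron-carrying siderophores. LCN2 was at 98.2, 112 and 106 TPM in buffer replicates 1, 2 and 3 and at 175, 175 and 171 TPM in Amuc_0904 replicates 1, 2 and 3, with no overlap (limma log2 fold change 0.72, SE 0.063, adjusted p = 0.0041). Of the heme breakdown and transport genes 1 of 10 fell, 0 rose and 9 did not pass in limma, with 1 higher and 1 lower at an unadjusted p of 0.05. SLC48A1, which encodes the heme transporter HRG1 of endosomes and lysosomes, fell from 90.4 ± 7.59 to 65.6 ± 3.90 TPM (SD, n = 3 each; limma log2 fold change -0.45, SE 0.079, adjusted p = 0.038). That call was lost under 12 of 15 alternatives, among them each single library left out (limma adjusted p up to 0.14).

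**Figure D4:**
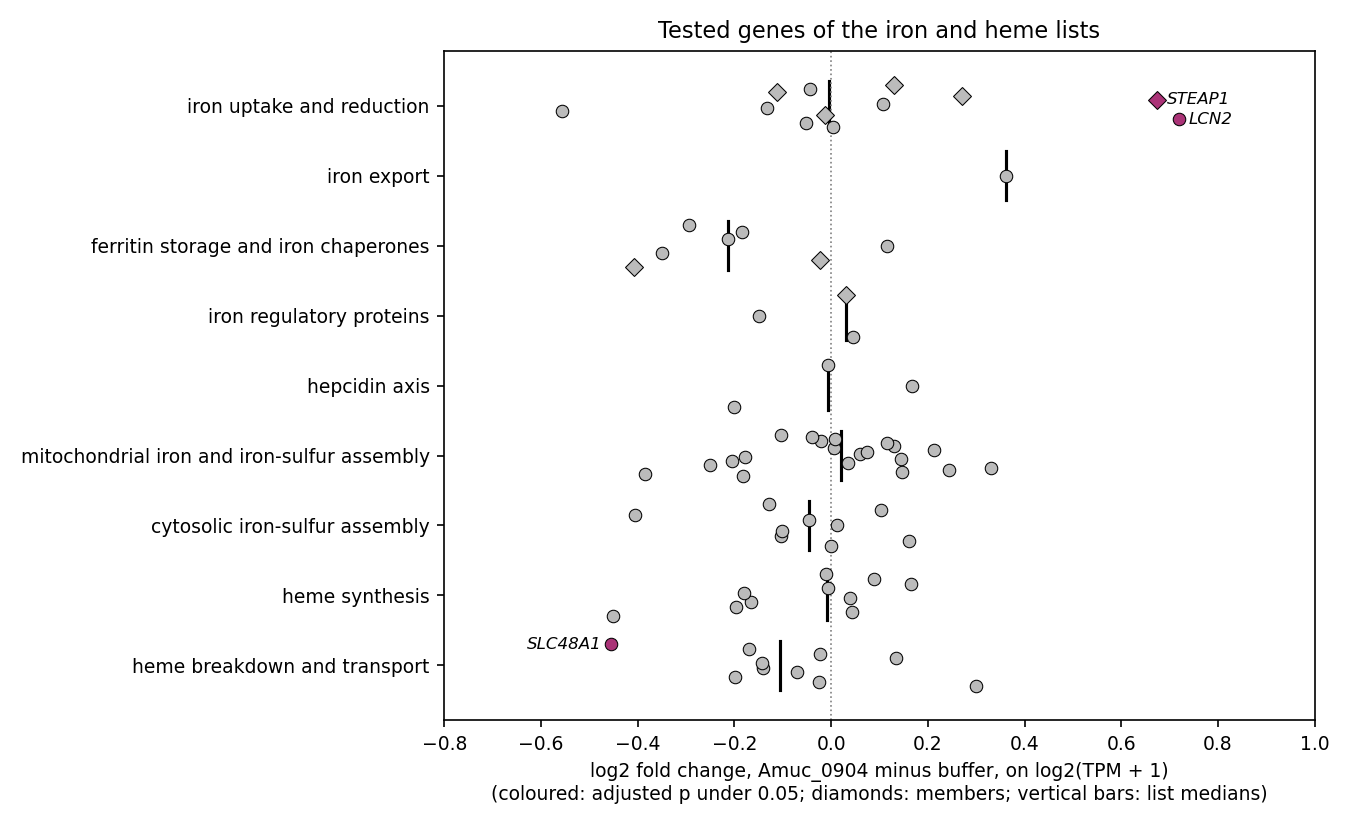
Log2 fold changes of the tested genes in each of the 9 lists, with diamonds for the genes described one by one above, vertical bars for list medians and colour for an adjusted p under 0.05. STEAP1 and LCN2 stand to the right at 0.67 and 0.72, SLC48A1 is coloured at -0.45, and the ferritin storage list has the lowest median, -0.21.

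In the other 7 lists no gene passed over all genes in limma. Of 7 tested ferritin storage and iron chaperone genes 6 had negative log2 fold changes, as did 62.5% of all genes tested, and 5 were lower at an unadjusted p of 0.05, against 16.3% of all genes. The median was -0.21, against -0.06 for all genes, over few genes that include FTH1. Besides FTH1, 3 genes named after their values were seen had all treated libraries below all buffer libraries, as did 20.1% of all genes tested: PCBP1 (285 TPM with buffer and 245 TPM with Amuc_0904), PCBP2 (447 and 393 TPM) and PCBP4 (28.6 and 23.1 TPM). They encode poly(C)-binding proteins, of which PCBP1 and PCBP2 deliver iron to ferritin, and their limma adjusted p were 0.099, 0.17 and 0.12. In the iron export list HEPHL1, which encodes a copper ferroxidase, was the 1 gene of 4 above the filter, with a mean of 7.77 TPM with buffer and 10.3 TPM with Amuc_0904 (limma log2 fold change 0.36, SE 0.10, adjusted p = 0.10). All 3 iron regulatory genes overlapped between groups, and FBXL5, whose product marks iron regulatory proteins for breakdown, had a mean of 26.6 TPM with buffer and 23.9 TPM with Amuc_0904 (limma adjusted p = 0.36).

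Of 20 mitochondrial iron and iron-sulfur assembly genes 3 were higher (15.0%, against 4.49% of all genes tested) and 3 lower (15.0%, against 16.3%) at an unadjusted p of 0.05. Their median log2 fold change was 0.02. The most abundant were GLRX5 (206 TPM with buffer and 182 TPM with Amuc_0904) and BOLA3 (154.5 and 171 TPM), both assembly factors, with limma adjusted p of 0.15 and 0.21. Of 9 cytosolic iron-sulfur assembly genes 0 were higher and 1 lower at that unadjusted p (11.1%, against 16.3% of all genes tested). The lower gene was NDOR1 (14.2 TPM with buffer and 10.5 TPM with Amuc_0904, limma adjusted p = 0.058). The targeting factors CIAO2A (115 and 128 TPM) and CIAO2B (132 and 123 TPM) overlapped between groups. The 10 heme synthesis genes had 0 higher and 1 lower, with a median of -0.01, and the most abundant were TMEM14C, a mitochondrial porphyrin transporter (122 TPM with buffer and 137 TPM with Amuc_0904), and UROD, a decarboxylase of the pathway (124 and 132 TPM), with limma adjusted p of 0.25 and 0.45. In the hepcidin list, of the hormone that controls iron export, 3 of 7 genes were tested, and 0 were higher or lower at that unadjusted p. HFE was at 2.74 and 3.26 TPM and NEO1 at 9.72 and 9.83 TPM, with overlapping groups, and the log2 fold change of NEO1 was of the opposite sign to its difference in means (-0.01).

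STEAP1 was then compared with the 9857 other tested genes that had a symbol and a mean of at least 5 TPM, by the root mean square difference of log2(TPM + 1) over the 6 libraries after subtraction of each gene's buffer mean. The nearest were NT5E, the cell surface nucleotidase CD73 (distance 0.0605), SERPINA1, the protease inhibitor alpha-1 antitrypsin (0.0743), PERP, a desmosome-associated membrane protein (0.0794), and SGPP2, a sphingosine-1-phosphate phosphatase (0.0881). NT5E was at 13.2, 10.95 and 11.9 TPM in buffer replicates 1, 2 and 3 and at 19.4, 18.8 and 21.1 TPM in Amuc_0904 replicates 1, 2 and 3. The means with buffer and with Amuc_0904 were 54.0 and 84.6 TPM for PERP, and 8.58 and 13.5 TPM for SGPP2. All 4 are near STEAP1 because they share its difference between the groups, so the comparison is a description.

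**Figure D5:**
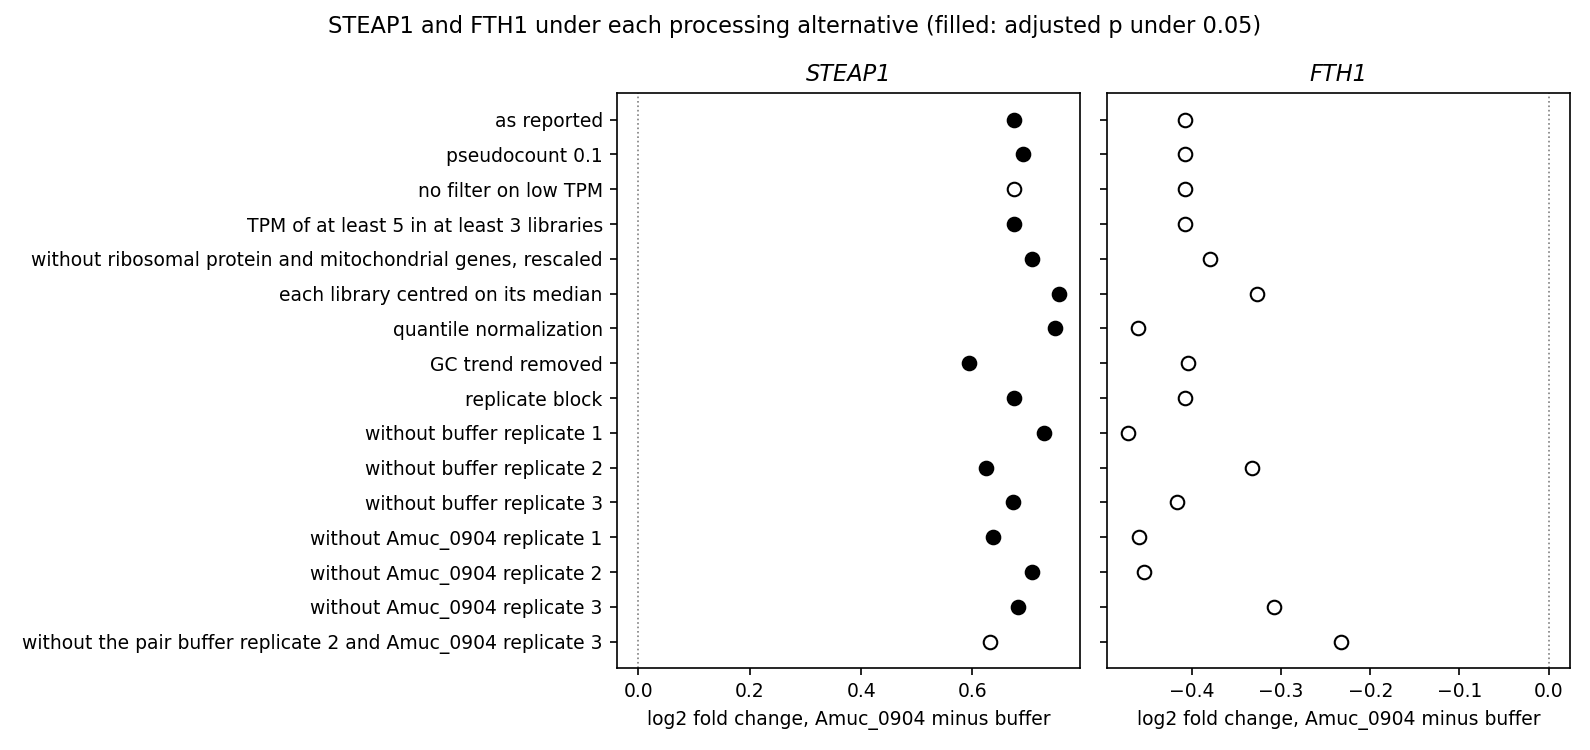
Log2 fold changes of STEAP1 (left) and FTH1 (right) as reported and under each of 15 processing alternatives, filled where the adjusted p was under 0.05, on separate linear scales that include 0. STEAP1 stays between 0.59 and 0.76 and is open in 2 rows, while FTH1 stays between -0.47 and -0.23 and is open in all rows.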

How the data were processed

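The authors deposited 1 gene table in TPM, quantified with RSEM per the series text. HISAT2, StringTie and edgeR appear in the submitters' processing notes with no version or role, as does a mouse build (GRCm38.p6) although the gene identifiers are human. Positions are from GENCODE 29 on GRCh38.

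The 14421 genes that reached 1 TPM in 3 or more libraries were fitted as log2(TPM + 1). The fit used limma 3.58.1 under R 4.3.3, with a trended empirical Bayes prior, two-sided tests and an adjusted p threshold of 0.05. The genes and lists were chosen with earlier results of these data known. Named list genes were those past the threshold, at most 4 a list, or otherwise the 2 with the highest mean. PCBP1, PCBP2, PCBP4, NDOR1 and ALAD were exceptions, named after their values were seen. GC trends were removed per library by loess (span 0.3, 99.0% of genes). In 20 simulated draws of 14421 genes limma called 54% to 72% of the genes given a 1.5-fold change (median 60.5%) and 84% to 95% at 2-fold (median 90%). Of the genes called in a draw, 0% to 7.6% had been given no change (median 4.49%). Changes were given only to genes with a mean of at least 5 TPM, and noise was drawn independently for each gene. The draws therefore do not cover lower genes or trends shared between genes. Figures used matplotlib 3.10.9.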

Additional observations from a re-analysis of the deposited data

How the results depend on the processing

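The count of genes called, 197 as reported, was 9 with all genes above 0 tested, 432 with a filter of 5 TPM, 85 with each library centred on its median, 102 after quantile normalization and 16 without the pair buffer replicate 2 and Amuc_0904 replicate 3, and lay between 35 (without buffer replicate 2) and 112 (without Amuc_0904 replicate 3) with single libraries left out. The cause was not tested. Of the calls 73.1% fell, against 49.4% with centring, 54.9% after quantile normalization and 57.7% after GC removal. Same-numbered libraries did not deviate together (correlations -0.029, 0.075 and -0.094), so the numbers were not taken to pair them, and with the replicate block 80 genes were called. The count of iron list genes called, 3 as reported, was 1 with all genes above 0 tested and 1 without that pair. It was 5 with the filter of 5 TPM, which added ALAD and NDOR1, both lower.

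STEAP1 was called under 13 of 15 alternatives and ranged from 0.62 to 0.73 with single libraries left out. It was not with all genes above 0 tested (0.68 on the log2 scale) or without the pair (0.63). STEAP2, STEAP3, TFRC and FTH1 kept their sign and stayed uncalled under all 15. FTL turned positive without ribosomal protein and mitochondrial genes (0.004), with centring (0.058), after GC removal (0.047) and without the pair (0.010), and ranged from -0.050 to 0.030 with single libraries left out. SLC11A2 turned positive without ribosomal protein and mitochondrial genes (0.013), with centring (0.067), after quantile normalization (0.072) and without the pair (0.001), and ranged from -0.079 to 0.052. IREB2 turned negative after GC removal (-0.083) and without the pair (-0.085), and ranged from -0.12 to 0.13. Among list genes NEO1 turned positive without ribosomal protein and mitochondrial genes (0.018), with centring (0.074) and after quantile normalization (0.074), and ranged from -0.14 to 0.17. HFE was -0.005 without the pair and ranged from 0.040 to 0.34, and CIAO2B was 0.019 after GC removal and 0.036 without the pair and ranged from -0.23 to -0.011. With unknown depth, no limit of detection can be given for STEAP4 and SLC40A1.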
